A study of Mus musculus with 30 samples.

Results

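The neurotrophin system examined here comprises 6 genes, Bdnf, Ntf3, Ntrk2, Ntrk3, Ngfr and Sort1, taken by gene symbol from the 24883 rows of an expression table of mouse dorsal hippocampus. Each symbol had a single row, and 5 of the 6 genes passed the filter used for testing, a mean of at least 1 FPKM over all libraries. FPKM counts sequenced fragments per unit of transcript length and of library depth, so levels of different genes can be set side by side. The sixth gene, Ngfr, averaged 0.748 FPKM and was tested in a fit without that filter.

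The study asked how a tyrosine of CREST, a calcium-responsive transactivator of the neuronal BAF chromatin remodeling complex encoded by Ss18l1, bears on learning-induced transcription. The labels call the changes at this tyrosine phospho-null and phospho-mimetic, but phosphorylation there was not shown and the residue is a putative site. RNA was sequenced from 30 young adult male wild-type C57BL/6J mice, 6 per condition and 1 library per mouse, all single-housed and all given an infusion into the dorsal hippocampus of the transfection reagent in vivo-jetPEI, which the labels place 3 days ahead of training. VEH-HC mice received the reagent without DNA and were only handled in the home cage. VEH-T10 and VEH-T3 mice received the reagent without DNA and were trained in object location memory (OLM) for 10 min, a threshold period, or for 3 min, a subthreshold period. In Y397F-T10 mice the reagent carried a plasmid for mouse CREST, tagged with HA at its start and holding the change Y397F, and training lasted 10 min. Y397D-T3 mice received the same construct with the change Y397D and were trained for 3 min. Tissue was collected 1 h after training. Both plasmids use the miniCaMK2 promoter, derived from a gene of excitatory neurons, no condition received a plasmid encoding unmutated CREST or a plasmid without CREST, and no plasmid condition was kept in the home cage. Plasmid effects therefore cannot be told apart from the effect of any DNA, and each plasmid was used at a single training period. The OLM procedure also included days of habituation to the chamber, whereas home cage mice were only handled. Training and this exposure cannot be told apart in comparisons with VEH-HC.

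Neurotrophins are secreted growth factors made as precursors (proneurotrophins) that are cleaved to the mature form. BDNF, encoded by Bdnf, is released by excitatory neurons with activity and acts on the receptor tyrosine kinase TrkB (Ntrk2), and neurotrophin-3 (Ntf3) acts mainly on TrkC (Ntrk3). The receptor p75NTR (Ngfr) binds all neurotrophins and binds precursors together with sortilin (Sort1), which also sorts BDNF into the regulated secretory pathway. BDNF acting on TrkB is known for its part in long-term potentiation and hippocampal memory, and Bdnf has several promoters that respond differently to activity.

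The 6 genes lie on 6 chromosomes of the mouse GRCm38 assembly. Bdnf spans chr2:109674700-109727007 on the plus strand with 11 annotated transcripts, Ntf3 chr6:126101412-126166910 on the minus strand, and Ntrk2 chr13:58806569-59133970 on the plus strand with 10 transcripts. Ntrk3 spans chr7:78175959-78738012 on the minus strand with 20 transcripts, Ngfr chr11:95568818-95587735 on the minus strand and Sort1 chr3:108284082-108361511 on the plus strand. One FPKM value per symbol cannot separate the Bdnf promoters, or the full-length and truncated receptors of Ntrk2 and Ntrk3. Antisense genes overlap Bdnf, Ntrk2, Ntrk3 and Sort1 in the annotation and have no row of their own in the table, and the strand setting of the counting is not given in the sources used here, so reads from both strands may be counted together for these 4 genes.

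RefSeq's promoter table for GRCm38.p6 gives 7 start sites for Bdnf, each with a window from 250 bases before to 50 bases after the start. These windows were searched on both strands for the cyclic AMP response element (CRE), TGACGTCA, and its short form CGTCA or TGACG, for the E-box CACGTG and for the AP-1 site TGAGTCA or TGACTCA. The third start held the short CRE, at bases -35 to -31, and the windows of the other 6 starts held none of these letters. The 30 bases from -45 to -16 of that start and of its neighbours on either side are shown because the activity-regulated Bdnf promoters differ in this stretch, with the short CRE in capitals and all 3 read on the plus strand.
Bdnf start 2, chr2:109676987-109677016: ccccgccccctcctcctgcttccatccctc
Bdnf start 3, chr2:109692391-109692420: tgacagctcaCGTCAaggcagcgtggagcc
Bdnf start 4, chr2:109692982-109693011: agggcgcaaactctggttaagccgatgtgt
The short CRE was found in 20.8% of the 32851 mouse promoter windows, so a match is common, and the table of levels does not say from which of these starts the Bdnf reads came. The windows of 2 Ntf3 starts, 1 Ntrk2 start and 1 Ngfr start held no CRE in either form. The Ntf3 start at base 126166744 held the E-box at bases -231 to -226, a motif present in 7.15% of all windows.

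Across the 30 libraries the order of levels was Sort1, Ntrk2, Ntrk3, Bdnf, Ntf3 and Ngfr. Sort1 averaged 107 FPKM (range 90.6 to 120), above 95.1% of the rows tested, and Ntrk2 averaged 75.7 FPKM (67.0 to 88.0). Ntrk3 averaged 23.7 FPKM (20.1 to 29.2), Bdnf 12.9 FPKM (10.1 to 16.9), Ntf3 5.48 FPKM (3.07 to 8.54) and Ngfr 0.748 FPKM (0.151 to 1.84). The ranges of neighbours in this order did not overlap over the libraries, so the order held in every library. The spread among mice was smallest for the abundant genes, with a coefficient of variation of 5.53% for Sort1 and 7.49% for Ntrk2, and it was 13.5% for Bdnf, 25.2% for Ntf3 and 59.5% for Ngfr.

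The close relatives of these genes were measured on the same scale. Ntf5, which encodes neurotrophin-4, averaged 0.286 FPKM. Among the sortilin family, Sorl1 averaged 33.1 FPKM, Sorcs2 10.5 FPKM, Sorcs3 8.30 FPKM and Sorcs1 1.69 FPKM. Bdnf thus had a higher level than Ntf3 and Ntf5, Ntrk2 a higher level than Ntrk3, and Sort1 a higher level than the 4 other genes of its family.

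**Figure D1:**
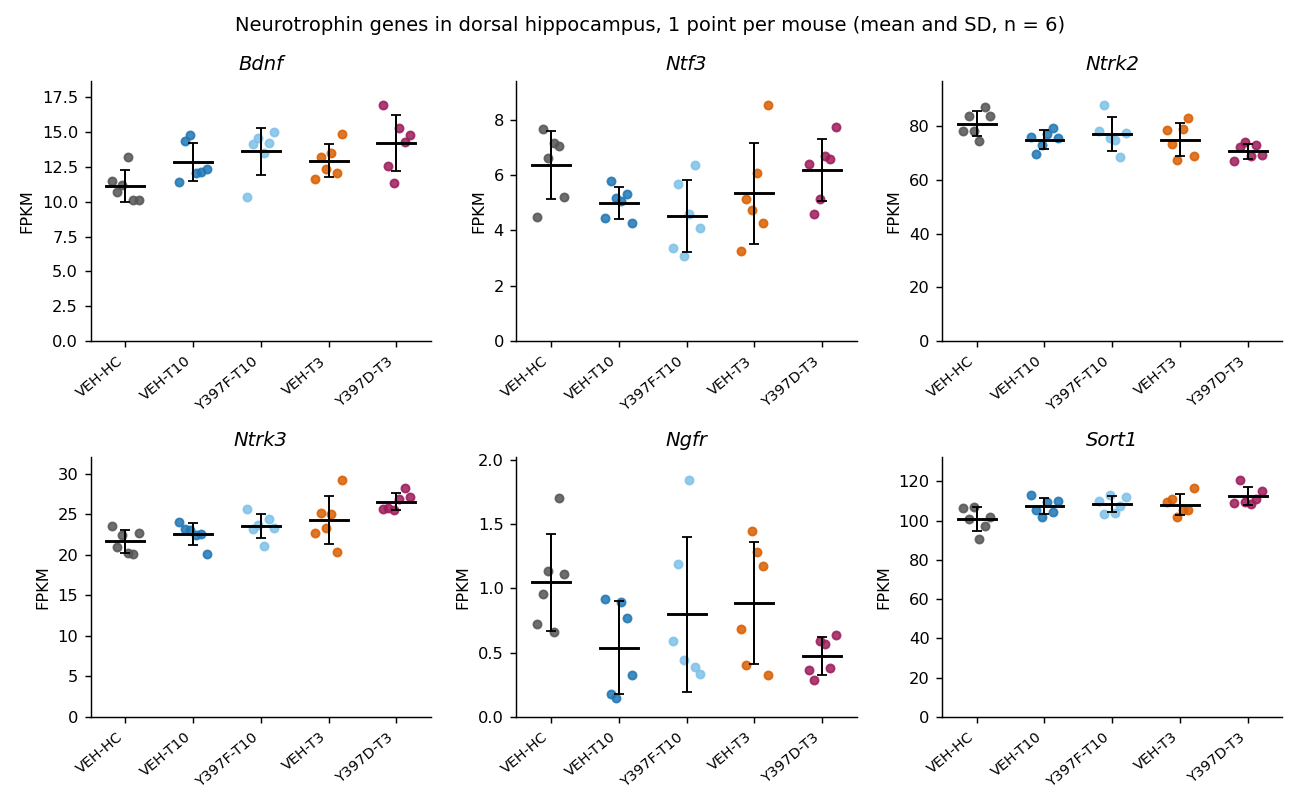
Expression of the 6 genes in FPKM (vertical axes start at 0) in the 5 conditions, with 1 point per mouse, a thick line at the mean and bars of 1 SD (n = 6 mice). In Y397D-T3 mice all Ntrk3 and Sort1 points lie above, and all Ntrk2 and Ngfr points below, the points of VEH-HC mice, whereas the Bdnf points of these conditions overlap.

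Depth relative to the median library ran from 0.811 to 1.24, absolute depth is unknown, and the precision of each value is therefore given by the spread among mice. Its condition median was 1.11 in VEH-HC and 0.974 to 1.05 in the trained conditions. Across libraries, r of the members with relative depth ran from -0.35 (Bdnf) to 0.46 (Ntrk2). With the median FPKM of the library r ran from -0.52 (Sort1) to 0.57 (Ngfr), and no such relation was tested. Ss18l1 itself, which the plasmids encode, ranged from 10.4 to 14.7 FPKM over all libraries and did not pass the test for Y397F-T10 against VEH-T10 (log2 difference 0.06, adjusted p = 1.00) or for Y397D-T3 against VEH-T3 (0.07, adjusted p = 0.786), so the expression table does not by itself show which mice carried a plasmid. Markers of CA1 pyramidal neurons were present in every library, with summed levels of 167 to 257 FPKM. Summed choroid plexus markers, which CA1 tissue should lack, ranged from 10.9 to 12858 FPKM, and their mean log2 level fell in the order VEH-HC (5.12), VEH-T3 (4.15), Y397F-T10 (3.30), VEH-T10 (2.95) and Y397D-T3 (2.49). Markers of thalamus and of deep cortical layers were likewise highest in VEH-HC (mean log2 levels of 2.46 and 3.16, against 2.05 to 2.23 and 2.71 to 2.84 in the trained conditions). The home cage library of mouse 4 stood apart in several genes, including Sorl1, and the results of members and pathway genes that lose their call without it are named with that loss. In these whole-tissue libraries, fewer cells of a type and less RNA per cell cannot be told apart.

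Differences were tested with limma on log2(FPKM + 1), with an adjusted p under 0.05 as the threshold. Adding 1 draws the fold changes of low genes such as Ngfr toward 0. Each trained condition was set against the same VEH-HC mice, so these 4 comparisons share their controls. Of the 6 genes, 4 passed in Y397D-T3 against VEH-HC: Bdnf, Ntrk3 and Sort1 were higher and Ntrk2 was lower. By comparison, 3.91% of all 13184 tested rows were raised (515) and 3.16% lowered (417), a split that became 692 and 248 when each library was centred on its median. No member passed in VEH-T10, VEH-T3 or Y397F-T10 against VEH-HC, where the shares of all rows raised and lowered were 0.319% and 0.501%, 2.23% and 2.94%, and 0.47% and 0.66%. Without adjustment, 3, 4 and 3 of the members respectively had a limma p under 0.05 in these comparisons. The share of all rows under that unadjusted threshold is not given here, so these counts are not read as a trait of the members. All 6 members overlapped with home cage mice in these conditions, where 0.789% and 1.64%, 0.675% and 1.31%, and 0.554% and 1.24% of rows were higher or lower in every trained mouse than in every home cage mouse. These calls do not show that the trained conditions differ from each other, which was tested separately.

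Bdnf was lowest in home cage mice and higher in all trained conditions. The lowest, median and highest values were 10.1, 10.9 and 13.2 FPKM in VEH-HC and 11.3, 14.5 and 16.9 FPKM in Y397D-T3, and all 6 Y397D-T3 mice were above the home cage median although the conditions overlapped. Mean Bdnf rose by 27.5%, from 11.1 ± 1.17 to 14.2 ± 2.00 FPKM (SD, n = 6 each), a log2 difference of 0.32 (SE 0.0879, limma adjusted p = 0.0266). The exact permutation test of 6 against 6 mice gave p = 0.0130, or 0.0657 after adjustment over the 7 comparisons of this gene.

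The remaining trained conditions had intermediate Bdnf levels. The values were 11.4, 12.2 and 14.8 FPKM in VEH-T10, 11.6, 12.8 and 14.8 FPKM in VEH-T3, and 10.3, 14.1 and 14.99 FPKM in Y397F-T10. The log2 differences from VEH-HC were 0.19 (95% interval 0.01 to 0.37, adjusted p = 0.305), 0.20 (0.02 to 0.38, adjusted p = 0.174) and 0.27 (0.08 to 0.45, adjusted p = 0.124). In the order of condition means, from VEH-HC through VEH-T10, VEH-T3 and Y397F-T10 up to Y397D-T3, every neighbouring pair overlapped.

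Single libraries changed the Bdnf calls. In Y397F-T10, mouse 1 was the lowest at 10.3 FPKM and stood apart from the other mice, and without it Bdnf passed the test in that condition too (log2 difference 0.34, adjusted p = 0.0277). In Y397D-T3, the difference ran from 0.27 to 0.38 when single libraries were left out, and the call was lost without home cage mouse 2 (adjusted p = 0.0555), 5 (0.0653) or 6 (0.0553) and without Y397D-T3 mouse 1 (0.0567), 4 (0.0566), 5 (0.0561) or 6 (0.0570). Bdnf was related to 3 of the 13 marker sets by Pearson r after adjustment, positively to CA1 pyramidal and dentate granule markers and negatively to markers of deep cortical layers. Across the 30 libraries its correlation with the mean level of the dentate granule markers was r = 0.56 (rho = 0.60, permutation p = 0.00128 and 0.00067, adjusted over 78 marker relations 0.0185 and 0.0138). It was 0.55 without the 2 libraries farthest from the median and 0.56 with condition means subtracted (adjusted permutation p = 0.0801). In that last form r did not pass, whereas rho did (0.59, adjusted permutation p = 0.0324). For CA1 markers r was 0.54 (rho = 0.52, adjusted permutation p = 0.0198 and 0.0385, r = 0.55 without the 2 farthest libraries) and 0.54 with condition means subtracted (adjusted permutation p = 0.112). For deep cortical markers r was -0.58 (rho = -0.47, adjusted permutation p = 0.0148 and 0.0563, r = -0.55 without the 2 farthest libraries) and -0.47 with condition means subtracted (adjusted permutation p = 0.142). With the CA1 marker level as a covariate the Y397D-T3 difference of Bdnf was 0.23 (adjusted p = 0.0992), with that of dentate granule markers 0.26 (adjusted p = 0.0363) and with that of choroid plexus markers 0.32 (adjusted p = 0.0675).

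Ntf3, the gene of the TrkC ligand, did not pass in any comparison. Its lowest, median and highest values were 4.48, 6.83 and 7.65 FPKM in VEH-HC, 4.25, 5.10 and 5.80 FPKM in VEH-T10, and 3.07, 4.34 and 6.37 FPKM in Y397F-T10. They were 3.27, 4.94 and 8.54 FPKM in VEH-T3 and 4.60, 6.48 and 7.72 FPKM in Y397D-T3. All conditions overlapped, and the means of VEH-HC (6.35 ± 1.24 FPKM) and Y397D-T3 (6.18 ± 1.13 FPKM) were closest to each other. The log2 difference from VEH-HC was -0.43 in Y397F-T10 (95% interval -0.75 to -0.10, adjusted p = 0.166) and -0.03 in Y397D-T3 (-0.36 to 0.29, adjusted p = 0.926). The spread among VEH-T3 mice was wide, with a coefficient of variation of 34.1%. By Pearson r, Ntf3 was related to thalamus markers (r = 0.47, permutation p adjusted over 78 relations 0.0479). By rho (0.45, adjusted permutation p = 0.0629) or with condition means subtracted (r = 0.44, adjusted permutation p = 0.165) that relation did not pass.

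Ntrk2, which encodes the BDNF receptor TrkB, was lower in Y397D-T3 mice than in every home cage mouse. The lowest, median and highest values were 74.6, 81.0 and 87.2 FPKM in VEH-HC against 67.0, 70.7 and 74.2 FPKM in Y397D-T3. Mean Ntrk2 fell by 12.7%, from 81.0 ± 4.72 to 70.7 ± 2.81 FPKM (SD, n = 6 each), a log2 difference of -0.19 (SE 0.0531, adjusted p = 0.0270, exact permutation p = 0.00216, the smallest that 6 against 6 mice allow). In all, 3.02% of tested rows were lower in every Y397D-T3 mouse than in every home cage mouse. The lowest, median and highest values were 69.6, 75.6 and 79.3 FPKM in VEH-T10, 68.6, 76.4 and 88.0 FPKM in Y397F-T10, and 67.3, 76.0 and 82.9 FPKM in VEH-T3. These 3 conditions overlapped with home cage mice, with log2 differences of -0.11, -0.07 and -0.11 (adjusted p = 0.339, 0.522 and 0.218). The call was lost without home cage mouse 2 (adjusted p = 0.0607), 5 (0.0728) or 6 (0.0516) and without Y397D-T3 mouse 4 (0.0515) or 6 (0.0566), and also when each library was centred on its median (-0.16, adjusted p = 0.0704). With the choroid plexus or the CA1 marker level as a covariate the Ntrk2 difference was -0.15 in each fit (adjusted p = 0.128 and 0.0979). With the dentate granule level it was -0.17 (adjusted p = 0.0424). By Pearson r, Ntrk2 was related to markers of CA1 (r = -0.54), thalamus (0.51), oligodendrocyte precursors (0.52) and meningeal fibroblasts (0.51). Adjusted permutation p over the 78 relations was 0.0198, 0.0254, 0.0241 and 0.0254. By rho only the precursors passed (rho = 0.58, adjusted permutation p = 0.0152). None of these relations passed with condition means subtracted.

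Ntrk3, which encodes the neurotrophin-3 receptor TrkC, showed the clearest separation of the 6 genes. The lowest, median and highest values were 20.1, 21.7 and 23.6 FPKM in VEH-HC and 25.6, 26.4 and 28.2 FPKM in Y397D-T3, with no overlap. Mean Ntrk3 rose by 22.6%, from 21.7 ± 1.42 to 26.5 ± 1.03 FPKM (SD, n = 6 each), a log2 difference of 0.28 (SE 0.0602, adjusted p = 0.00577, exact permutation p = 0.00216), and 2.5% of tested rows were higher in every Y397D-T3 mouse than in every home cage mouse. The call held in each of the 12 fits that left out 1 library (log2 difference 0.26 to 0.31). Ntrk3 was inversely related to oligodendrocyte precursor markers (r = -0.51, rho = -0.54, permutation p adjusted over 78 relations 0.0254 and 0.0262). By rho alone it was also related to astrocyte and microglia markers (rho = -0.50 and -0.50, adjusted permutation p = 0.0426 for each). None of these passed with condition means subtracted.

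In the other trained conditions Ntrk3 lay between these levels. The values were 20.1, 22.8 and 24.0 FPKM in VEH-T10, 21.0, 23.5 and 25.6 FPKM in Y397F-T10, and 20.3, 24.2 and 29.2 FPKM in VEH-T3. The log2 differences from VEH-HC were 0.06 (adjusted p = 0.712), 0.12 (adjusted p = 0.330) and 0.15 (adjusted p = 0.133). The last of these passed without VEH-T3 mouse 5 (0.20, adjusted p = 0.0302), the lowest of its condition. The annotation gives Ntrk3 a longest transcript of 19703 bases, and when the trend of each library with transcript length and GC content was removed, the Y397D-T3 difference was 0.10 (adjusted p = 0.368) and no longer passed, while those of Bdnf (0.37, adjusted p = 0.00805), Ntrk2 (-0.24, adjusted p = 0.00390) and Sort1 (0.14, adjusted p = 0.0249) did.

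The Ntrk2 to Ntrk3 ratio within a library was also computed, as a description without a test. Every Y397D-T3 library (2.55 to 2.90) had a lower ratio than every VEH-HC library (3.33 to 4.34). This separation follows from that of each gene and is no added result. The means were 2.67 ± 0.148 and 3.75 ± 0.366 (SD, n = 6 each). The mean ratio of the remaining conditions was 3.34 ± 0.281 in VEH-T10, 3.14 ± 0.587 in VEH-T3 and 3.29 ± 0.358 in Y397F-T10. The VEH-T3 range, 2.36 to 4.08, held all Y397D-T3 values, and no ratio was tested since both genes entered the tests above.

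**Figure D2:**
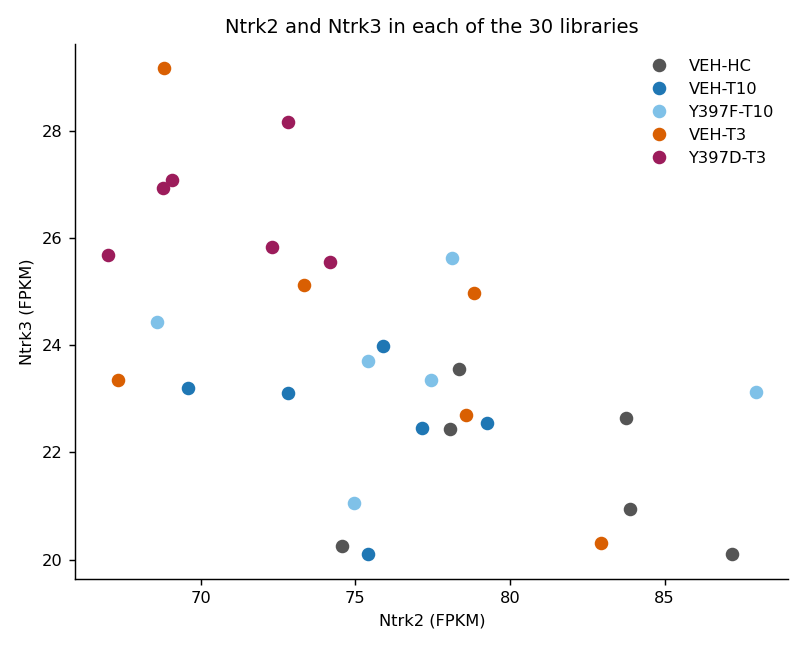
Ntrk3 against Ntrk2 in FPKM, 1 point per library and a color per condition (axes do not start at 0). Y397D-T3 libraries lie at the upper left, with Ntrk2 at or below 74.2 and Ntrk3 at or above 25.6 FPKM, and VEH-HC libraries at the lower right, with Ntrk2 at or above 74.6 and Ntrk3 at or below 23.6 FPKM.

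Ngfr, which encodes p75NTR, was the lowest and most variable of the 6 genes. The lowest, median and highest values were 0.662, 1.03 and 1.70 FPKM in VEH-HC and 0.289, 0.476 and 0.639 FPKM in Y397D-T3. The conditions did not overlap and the exact permutation p was 0.00216 (0.0152 over 7 comparisons), whereas the limma log2 difference of -0.46 did not pass among the 18287 rows of the fit without a filter (95% interval -0.83 to -0.09, adjusted p = 0.142). In that fit 2.41% of rows were raised and 2.08% were lowered for Y397D-T3 against VEH-HC, and 0.197% and 0.377%, 1.21% and 1.59%, and 0.262% and 0.416% for VEH-T10, VEH-T3 and Y397F-T10. With only the 12 libraries compared, Ngfr passed (adjusted p = 0.0241).

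In the remaining trained conditions Ngfr was spread widely. The values were 0.151, 0.549 and 0.917 FPKM in VEH-T10, 0.335, 0.515 and 1.84 FPKM in Y397F-T10, and 0.329, 0.930 and 1.44 FPKM in VEH-T3. All 3 overlapped VEH-HC, with log2 differences of -0.43 (adjusted p = 0.294), -0.23 (adjusted p = 0.622) and -0.14 (adjusted p = 0.786). Ngfr moved with several marker sets, most with that of choroid plexus. Over the 30 libraries r was 0.81 (rho = 0.76, permutation p adjusted over 78 relations 0.00078 for each), and 0.79 without the 2 farthest libraries. With condition means subtracted, r with the choroid plexus level was 0.76 (adjusted permutation p = 0.0148). The 30 libraries fell into 2 sets on either side of the widest gap in the marker level, 16 with levels of 0.95 to 3.69, where Ngfr ranged from 0.151 to 0.771 FPKM, and 14 with levels of 4.53 to 7.12, where it ranged from 0.402 to 1.84 FPKM. The upper set held 5 of 6 VEH-HC libraries and 1 of 6 Y397D-T3 libraries. Within the upper set the correlation was r = 0.60 (rho = 0.67, permutation p = 0.0244 and 0.0105, adjusted over the 2 sets 0.0488 and 0.0210), and 0.70 without the 2 libraries farthest from the median, and within the lower set it was r = 0.21 (rho = 0.10, permutation p = 0.441 and 0.721), or 0.06 without the 2 farthest. With the marker level as a covariate the Y397D-T3 difference was -0.12 (adjusted p = 0.712), and all 7 choroid plexus markers were above 0.1 FPKM on average over the 30 libraries. Markers of meningeal fibroblasts were also highest in VEH-HC and lowest in Y397D-T3 (mean log2 levels of 2.60 and 2.11), and Ngfr was related to them (r = 0.71, rho = 0.71, permutation p adjusted over 78 relations 0.00195 and 0.00117, r = 0.70 without the 2 farthest libraries). With condition means subtracted r passed (0.64, adjusted permutation p = 0.0398) and rho did not (0.59, adjusted permutation p = 0.0608). For thalamus markers r was 0.56 (rho = 0.59, adjusted permutation p = 0.0185 and 0.0138, r = 0.48 without the 2 farthest libraries), and for CA1 markers -0.52 (rho = -0.40, adjusted permutation p = 0.0247 and 0.104, r = -0.40 without the 2 farthest libraries), neither past the threshold with condition means subtracted (adjusted permutation p = 0.329 and 0.142). The part of choroid plexus, meningeal and thalamic tissue in the Ngfr differences was not tested. The choroid plexus level itself differed between conditions, so tissue content and condition cannot be told apart by the split or the covariate.

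**Figure D3:**
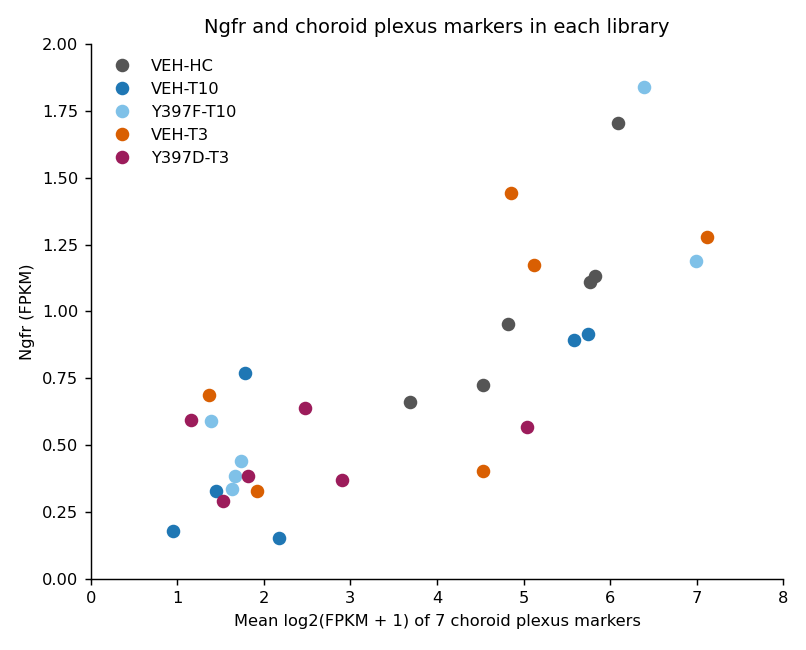
Ngfr in FPKM against the mean log2(FPKM + 1) of 7 choroid plexus marker genes, 1 point per library and a color per condition. The 14 libraries on the right (marker level 4.53 to 7.12) include 5 of the 6 VEH-HC libraries and reach 1.84 FPKM of Ngfr, and the 16 on the left stay at or below 0.771 FPKM.

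Sort1, which encodes sortilin, was the most abundant and least variable of the genes. The lowest, median and highest values were 90.6, 101 and 107 FPKM in VEH-HC and 109, 110.4 and 120 FPKM in Y397D-T3, without overlap. Mean Sort1 rose by 11.5%, from 101 ± 6.15 to 112 ± 4.62 FPKM (SD, n = 6 each), a log2 difference of 0.16 (SE 0.0406, adjusted p = 0.0195, exact permutation p = 0.00216). The medians of VEH-T10, Y397F-T10 and VEH-T3 were 107, 109 and 107 FPKM, all 6 mice of each were above the home cage median, and the log2 differences were 0.09, 0.11 and 0.10 (adjusted p = 0.277, 0.176 and 0.132). Home cage mouse 4 had the lowest Sort1 value of all libraries, and without it the Y397D-T3 call was lost (0.13, adjusted p = 0.0525), as it was without Y397D-T3 mouse 2, the highest (0.14, adjusted p = 0.0576). With the choroid plexus level as a covariate the difference was 0.14 (adjusted p = 0.0777) and with the CA1 level 0.14 (adjusted p = 0.0563). With the dentate granule level it was 0.16 (adjusted p = 0.0177). Sort1 was related to thalamus markers (r = -0.58, rho = -0.59, permutation p adjusted over 78 relations 0.0148 and 0.0139). With condition means subtracted that r was -0.30 (adjusted permutation p = 0.357). Without home cage mouse 4, the members called in Y397D-T3 were Bdnf, Ntrk2 and Ntrk3.

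**Figure D4:**
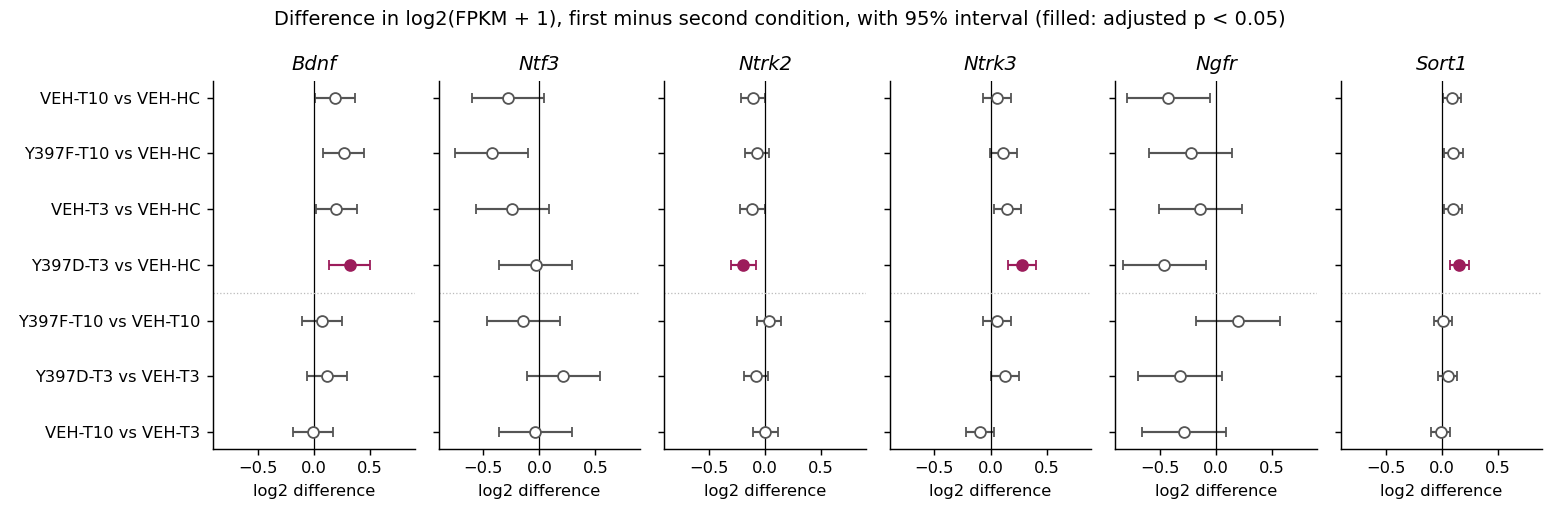
Differences in log2(FPKM + 1) of the 6 genes in 7 comparisons (first minus second condition), with 95% intervals from limma and filled points where the adjusted p was under 0.05. The 4 filled points all belong to Y397D-T3 against VEH-HC, and the intervals of both plasmid comparisons with vehicle mice of the same training period, below the dotted line, include 0 except that of Ntrk3 in Y397D-T3 against VEH-T3 (0.01 to 0.26).

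Each plasmid condition was also set against vehicle mice of the same training period. For Y397D-T3 against VEH-T3, no member passed, with 0% of all rows raised and 0.00758% lowered. The log2 differences were 0.12 for Bdnf (95% interval -0.06 to 0.30), 0.21 for Ntf3 (-0.11 to 0.54), -0.08 for Ntrk2 (-0.19 to 0.03), 0.13 for Ntrk3 (0.01 to 0.26), -0.32 for Ngfr (-0.69 to 0.05) and 0.05 for Sort1 (-0.03 to 0.14). Ntrk3 was the member with an unadjusted p under 0.05 (p = 0.0374, adjusted p = 0.614, exact permutation p = 0.0996), and all members overlapped between these conditions (0.137% of rows were higher and 0.091% lower in every mouse). The intervals leave room for a Bdnf difference of up to 0.30, so a p above the threshold does not show that the conditions were alike.

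For Y397F-T10 against VEH-T10, 0% of rows were raised and 0% lowered in all, no member had an unadjusted p under 0.05, and all overlapped (0.174% of rows were higher and 0.0834% lower in every mouse). The log2 differences were 0.07 for Bdnf (-0.11 to 0.25), -0.15 for Ntf3 (-0.47 to 0.18), 0.04 for Ntrk2 (-0.07 to 0.14), 0.06 for Ntrk3 (-0.06 to 0.18), 0.20 for Ngfr (-0.18 to 0.57) and 0.01 for Sort1 (-0.07 to 0.10). Between the training periods, VEH-T10 against VEH-T3, no member passed either (0% of rows raised and 0.0455% lowered, or 0.00547% and 0.0273% in the fit that held Ngfr), all overlapped (0.0758% of rows higher and 0.311% lower in every mouse), and the Bdnf difference was -0.01 (-0.19 to 0.17). The plasmids were then compared through their differences from vehicle, Y397D-T3 minus VEH-T3 against Y397F-T10 minus VEH-T10. None of the 6 genes passed (0% of rows raised and 0.0303% lowered, or 0% and 0.0219% in the fit that held Ngfr), with values of 0.04 for Bdnf (-0.21 to 0.30, adjusted p = 0.954), 0.36 for Ntf3 (-0.10 to 0.82, adjusted p = 0.653) and -0.52 for Ngfr (-1.05 to 0.01, adjusted p = 0.644).

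Among the sortilin family, Sorl1, a sorting receptor, was higher in Y397D-T3 (lowest, median and highest 31.2, 35.5 and 39.4 FPKM) than in VEH-HC (19.3, 30.8 and 32.5 FPKM), with overlap (log2 difference 0.29, SE 0.0886, adjusted p = 0.0449), but home cage mouse 4 had a Sorl1 level of 19.3 FPKM against 29.7 to 32.5 FPKM in the other home cage mice, and without it the difference was 0.18 (adjusted p = 0.0899). The Sorl1 call was also lost without home cage mouse 2 or 5 or any of Y397D-T3 mice 2 to 6, with an adjusted p of up to 0.111. Sorcs2, another member of that family, was lower in VEH-T3 than in VEH-HC (log2 difference -0.30, adjusted p = 0.0344), a call lost without home cage mouse 2, 3, 4 or 5 or VEH-T3 mouse 2, 3, 4 or 6 (adjusted p up to 0.0833).

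Genes of the wider pathway were followed by 5 lists, written with earlier results of these data known. For their counts, the shares of all tested rows raised and lowered were 3.91% and 3.16% in Y397D-T3 against VEH-HC. They were 2.23% and 2.94% in VEH-T3, 0.319% and 0.501% in VEH-T10, and 0.47% and 0.66% in Y397F-T10. For fits with a covariate or without 1 library such shares are not given here, so list counts under those fits are descriptions only. Processing and release of proneurotrophins, with proteases such as furin and tissue plasminogen activator, had 10 tested genes of 14 and none passed in any of the 7 comparisons, while 0 to 2 had an unadjusted p under 0.05. Their median log2 difference from VEH-HC was -0.06 to -0.09 in the trained conditions, where the median of all tested rows was -0.03 to -0.04. Of the 18 genes of p75NTR partners and signalling, Ncstn, which encodes the gamma-secretase subunit nicastrin, was lower in Y397D-T3 (21.1 ± 1.43 against 25.7 ± 0.896 FPKM, log2 difference -0.27, adjusted p = 0.0210), and the call was lost without Y397D-T3 mouse 2 (adjusted p = 0.0577). It was also lost with the choroid plexus level (-0.15, adjusted p = 0.140) or the CA1 level (-0.23, adjusted p = 0.0765) as a covariate.

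Of the 44 tested genes of Trk adaptors and signalling, Mapk3, which encodes the kinase ERK1, was lower than in VEH-HC in all 4 trained conditions. Its mean was 107 ± 8.93 FPKM in VEH-HC, against 90.7 ± 7.44 (VEH-T10), 89.4 ± 6.42 (VEH-T3), 88.1 ± 6.04 (Y397F-T10) and 91.5 ± 4.47 FPKM (Y397D-T3). The log2 differences were in that order -0.24, -0.26, -0.28 and -0.23 (adjusted p = 0.0468, 0.0155, 0.0300 and 0.0202). Home cage mouse 4 was the highest at 124 FPKM, and without it none of these calls held (-0.20, -0.22, -0.24 and -0.18, adjusted p = 0.0989, 0.0514, 0.0682 and 0.0564). Of the 12 fits that left out 1 library, 9 (VEH-T10), 1 (VEH-T3), 6 (Y397F-T10) and 3 (Y397D-T3) lost the Mapk3 call. In Y397D-T3, 4 genes of this list were higher, among them Kidins220 (a scaffold that binds Trk receptors, 0.15), Pdpk1 (the kinase PDK1, 0.15) and Plcg1 (the phospholipase coupled to TrkB, 0.19). Without home cage mouse 4, or with the choroid plexus level as a covariate, 0 genes of the list passed in either direction in Y397D-T3. Of the 12 fits that left out 1 library, 4 lost the Y397D-T3 call of Kidins220, 9 that of Pdpk1 and 2 that of Plcg1. In VEH-T3, Braf (0.20) and Plcg1 (0.18) were higher, and none was in VEH-T10 or Y397F-T10. Without home cage mouse 4 the Braf call held (0.18, adjusted p = 0.0472) and the Plcg1 call did not (0.14, adjusted p = 0.109). The VEH-T3 call of Plcg1 was lost in 7 of 12 fits that left out 1 library.

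Among 14 regulators of Bdnf transcription, Crebbp, which encodes the histone acetyltransferase CBP, was higher in VEH-T3 (7.67 ± 0.704 FPKM) and Y397D-T3 (7.32 ± 0.452 FPKM) than in VEH-HC (5.71 ± 0.947 FPKM), with log2 differences of 0.38 (adjusted p = 0.00910) and 0.32 (adjusted p = 0.0103). Home cage mouse 4 was its lowest library at 3.89 FPKM, and both calls held without it (0.29, adjusted p = 0.0139, and 0.23, adjusted p = 0.0164). The transcription factor genes Mef2a (0.16 in each) in both conditions, Creb1 (0.23) in VEH-T3 and Srf (0.19) in Y397D-T3 were the other genes of the list raised, none was lowered, and no gene of the list passed in VEH-T10 or Y397F-T10. Without home cage mouse 4 Srf held (0.17, adjusted p = 0.0362), whereas Creb1 (0.20, adjusted p = 0.0522) and Mef2a (0.14 in each, adjusted p = 0.0953 in VEH-T3 and 0.0663 in Y397D-T3) did not. This left 1 of 14 genes raised in VEH-T3 and 2 of 14 in Y397D-T3. Of the 12 fits that left out 1 library, 3 lost the Creb1 call. The Mef2a call was lost in 7 such fits in VEH-T3 and 4 in Y397D-T3.

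The list with the most calls was that of activity- and BDNF-responsive genes, with 7 of 17 raised in Y397D-T3 and 3, 2 and 2 raised in VEH-T3, VEH-T10 and Y397F-T10. Of all tested rows, 3.91%, 2.23%, 0.319% and 0.47% were raised in these conditions. This list was written with earlier results of these data known, so its rank among the lists is only a description. The list median of the log2 difference was 0.35 in Y397D-T3 and 0.12 to 0.17 in the others. Homer1, whose short form is induced by activity, rose in all 4 conditions from 16.1 ± 1.15 FPKM to 21.9 to 23.5 FPKM (log2 differences 0.42 to 0.51, adjusted p 0.00147 to 0.00960), without overlap with home cage mice. Egr1, an immediate-early transcription factor gene, rose in VEH-T3 (56.1 ± 8.44 against 36.3 ± 3.29 FPKM, 0.61, adjusted p = 0.0104) and in Y397D-T3 (54.4 ± 10.7 FPKM, 0.55, adjusted p = 0.00870). Egr1 had means near these in VEH-T10 (50.5 ± 2.22 FPKM, 0.47, adjusted p = 0.0651), where every mouse was above every home cage mouse, and in Y397F-T10 (51.4 ± 10.6 FPKM, 0.47, adjusted p = 0.0573), without passing. With median centring, the length and GC correction or the dentate granule level as a covariate Egr1 passed in VEH-T10 (adjusted p = 0.0483, 0.0308 and 0.0373), and with the length and GC correction or the choroid plexus or CA1 level it passed in Y397F-T10 (adjusted p = 0.0310, 0.0426 and 0.0498). Dusp6, which encodes an ERK phosphatase, rose in Y397D-T3 (27.1 ± 4.51 against 18.3 ± 0.924 FPKM, 0.53, adjusted p = 0.00245) and in VEH-T3 (23.9 ± 3.79 FPKM, 0.35, adjusted p = 0.0368). The VEH-T3 call of Dusp6 was lost in 9 of 12 fits that left out 1 library, home cage mouse 4 among them (adjusted p = 0.0601). In VEH-T10 (24.3 ± 1.84 FPKM, 0.39, adjusted p = 0.0526) and Y397F-T10 (22.5 ± 2.51 FPKM, 0.28, adjusted p = 0.147) it did not pass, although every mouse of both conditions was above every home cage mouse. Under median centring, the length and GC correction or the dentate granule covariate Dusp6 passed in VEH-T10 too (adjusted p = 0.0390, 0.0106 and 0.0406). The calls of Homer1 in all 4 conditions, of Egr1 in VEH-T3 and Y397D-T3 and of Dusp6 in Y397D-T3 held in every fit that left out 1 library.

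The further genes of this list raised in Y397D-T3 were Arc (0.49), Egr2 (0.52), Fosb (0.35) and Nr4a1 (0.43). Their calls were lost in 8, 7, 12 and 8 of 12 fits that left out 1 library. Without home cage mouse 4 none of these 4 passed, leaving 3 of 17. With the choroid plexus level as a covariate 5 passed, and with the CA1 level 4. Fosb was also called in VEH-T10 (0.48, adjusted p = 0.0319) and Y397F-T10 (0.44, adjusted p = 0.0470), with calls lost in 8 and 11 of 12 fits that left out 1 library. Dusp1, another phosphatase gene of the same list, was lower in Y397F-T10 (6.22 ± 1.03 against 8.90 ± 1.92 FPKM, -0.44, adjusted p = 0.0358), a call lost in 8 of 12 such fits. Without home cage mouse 4, neither Dusp1 (-0.49, adjusted p = 0.0564) nor Fosb (0.44, adjusted p = 0.0944) passed in Y397F-T10, and Fosb held in VEH-T10 (0.49, adjusted p = 0.0478).

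**Figure D5:**
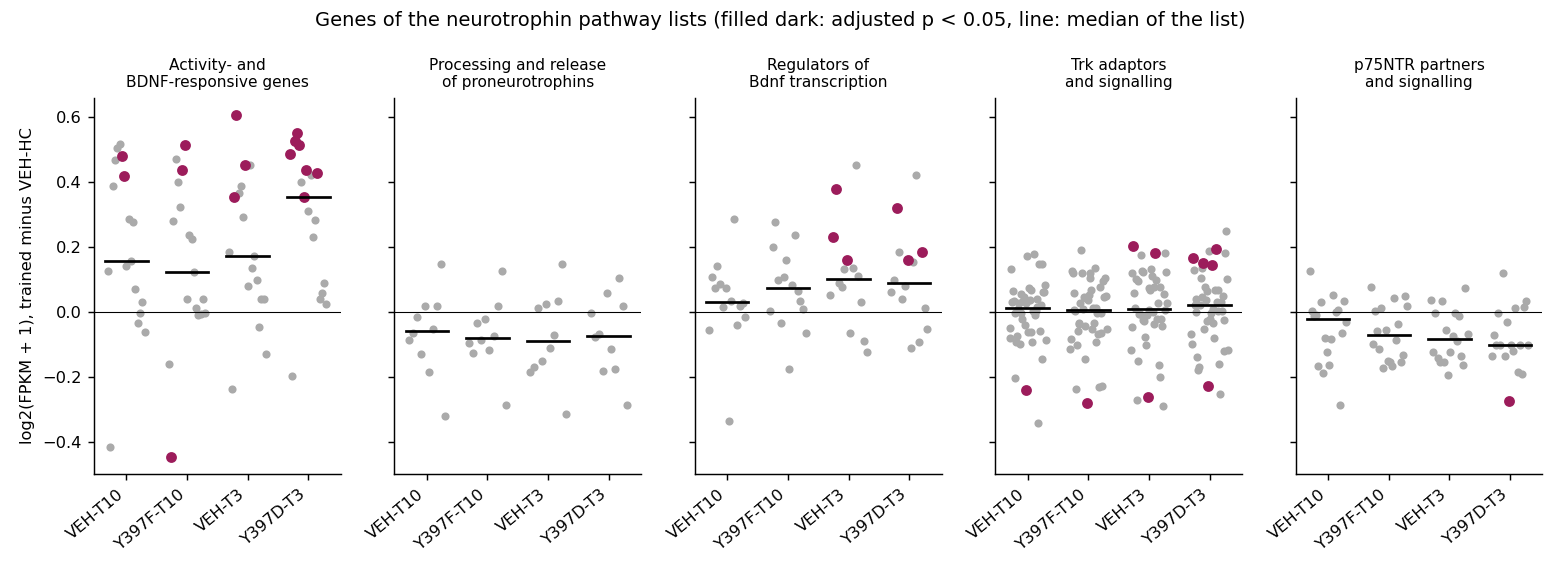
Log2(FPKM + 1) differences of trained conditions from VEH-HC for every tested gene of the 5 pathway lists, with called genes (adjusted p under 0.05) large and dark and a line at the list median. Called genes are most frequent among activity- and BDNF-responsive genes in Y397D-T3, where 7 of 17 are raised, and absent from the list of proneurotrophin processing and release. Of all tested rows, 3.91% were raised in Y397D-T3.

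Correlations over the 30 libraries were computed for the 15 pairs of members, not all of which passed. Bdnf and Ntrk2 moved in opposite directions (r = -0.63, rho = -0.63, permutation p adjusted over 15 pairs 0.00142 and 0.00210), also without the 2 libraries farthest from the Bdnf median (r = -0.54). With condition means subtracted, r was -0.50 (adjusted permutation p = 0.0642) and rho -0.58 (adjusted permutation p = 0.0190). Within conditions the sign was negative in all 5 conditions, each with 6 mice (r from -0.92 in VEH-HC to -0.08 in Y397F-T10).

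Ntrk3 and Sort1 moved together (r = 0.67, rho = 0.65, adjusted permutation p = 0.00075 and 0.00210, r = 0.63 without the 2 farthest libraries), and with condition means subtracted r was 0.48 (adjusted permutation p = 0.0728). Ntrk2 and Ntrk3 were inversely related (r = -0.58, rho = -0.58, adjusted permutation p = 0.00480 and 0.00356, r = -0.56 without the 2 farthest), a relation that did not pass with condition means subtracted (r = -0.34, adjusted permutation p = 0.266). Bdnf and Ntf3, the ligand genes, were not related over all libraries (r = 0.23, rho = 0.21, adjusted permutation p = 0.286 and 0.304), but with condition means subtracted r was 0.51 (adjusted permutation p = 0.0642) and rho 0.53 (adjusted permutation p = 0.0295). Within conditions this r ran from 0.12 in VEH-HC to 0.98 in VEH-T3. Ngfr was related to Ntrk2 (r = 0.55), Bdnf (-0.51), Ntrk3 (-0.46) and Sort1 (-0.46), with adjusted permutation p = 0.00652, 0.0136, 0.0229 and 0.0229. Bdnf and Ntrk3 were related too (r = 0.45, adjusted permutation p = 0.0229). With condition means subtracted none of these passed by r, and by rho only Bdnf and Ngfr did (-0.48, adjusted permutation p = 0.0450). The remaining pairs did not pass.

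The 3 genes most like each member across the 30 libraries were named by the highest Pearson r, as a description. For Bdnf they were Dnajb5 (r = 0.84), Scn3b (0.82) and Camkk1 (0.82), for Ntf3 Tiam2 (0.74), Rbm24 (0.73) and Vps37b (0.73), and for Ntrk2 Ptprf (0.87), Tmem65 (0.78) and Rcn1 (0.78). For Ntrk3 they were Dab1 (0.85), Cttnbp2 (0.84) and Mcf2l (0.80), for Ngfr Cish (0.89), Sema3f (0.87) and Phactr2 (0.87), and for Sort1 Unc13a (0.89), Socs7 (0.89) and Gnaq (0.89). With condition means subtracted these 18 values stayed between 0.61 and 0.88. Dnajb5 and Bdnf kept 0.82, and Cish and Ngfr 0.88.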

How the data were processed

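Paired-end RNA-seq of 30 dorsal hippocampus libraries was analysed as FPKM values, which the authors computed with Cufflinks 2.2.1 after alignment to mm10 with TopHat2 2.1.1 and deposited as a table of 24883 rows. The annotation release is not given in the sources used here. All 30 value columns were used and 0 were left out. The instrument of each library is not stated, so no sequencing batch was modelled, and Cufflinks normalization by library and length leaves absolute depth unknown.

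Values entered limma 3.58.1 (R 4.3.3) as log2(FPKM + 1), 1 coefficient per condition, all 30 libraries, trended empirical Bayes, for 13184 rows with a mean of at least 1 FPKM. Ngfr and Ntf5 came from a fit of 18287 rows above 0 in at least 6 libraries. Benjamini-Hochberg adjustment covered all rows of a comparison, with a threshold of 0.05. Exact permutation tests (2-sided, 924 splits) compared single genes, and 100000 permutations tested correlations. On simulated data for VEH-T10 against VEH-HC with 13184 genes, 34.3% of changes of 0.25, 79.1% of 0.5 and 100% of 1 log2 unit were recovered, with 5 false calls. Genes were drawn independently from normal distributions, without variation shared between genes such as that of tissue content. These rates therefore need not hold for the measured libraries. Other steps ran in Python 3.11.15 with pandas 2.3.3, numpy 2.4.6 and scipy 1.17.1.

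The rule for named genes took the 6 members, their close relatives, the 3 raised and 3 lowered list genes with the largest changes per comparison and the 3 genes most similar to each member. Kidins220, Pdpk1, Plcg1, Braf, Mef2a, Creb1, Srf, Arc and Nr4a1 lie outside it, as do Fosb, Dusp6, Homer1 and Crebbp in comparisons where others were larger, and were named after their values were seen. Members and lists were chosen with earlier results of these data known. Alternatives were a pseudocount of 0.1, no filter, median centring, unadjusted p values, only 12 libraries, replicate numbers as a block, summed rows, single libraries left out and, added after seeing the data, a length and GC correction and marker levels as covariates. Gene coordinates follow GENCODE for GRCm38 and promoter windows RefSeq for GRCm38.p6. Of the members, 4 had promoter entries, and Ntrk3 and Sort1 are named only. Some genes of the rule and lists are not reported here.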

Additional observations from a re-analysis of the deposited data

Results flagged for a closer look

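Within each condition of 6 mice, the highest and lowest values of the named genes were compared with the others, and 10 of 110 groups held a value whose gap to the nearest mouse exceeded the 95% limit of Dixon's test, which chance alone gives in about 1 of 20 groups. Of the 6 members, Bdnf held such a value, the lowest Y397F-T10 value (mouse 1, 10.3 FPKM). Home cage mouse 4 stood apart in 5 genes, as the lowest for Sorl1 (19.3 FPKM), Sorcs3 (7.21 FPKM), Crebbp (3.89 FPKM) and Ntf5 (0.186 FPKM) and the highest for Mapk3 (124 FPKM). The other values that stood apart were Ntf5 in VEH-T3 mouse 4 (1.24 FPKM), Sorcs2 in Y397F-T10 mouse 1 (12.6 FPKM), Fosb in Y397D-T3 mouse 5 (lowest, 2.01 FPKM) and Ncstn in VEH-T10 mouse 5 (highest, 26.1 FPKM).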

How the results depend on the processing

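A pseudocount of 0.1, no filter, summed rows and the replicate block all left 4 members called in Y397D-T3 against VEH-HC, and median centring and the length and GC correction 3 each. With the choroid plexus or the CA1 level as a covariate 1 was called, Ntrk3. With the dentate granule level Bdnf, Ntrk2, Ntrk3 and Sort1 stayed called (adjusted p = 0.0363, 0.0424, 0.00861 and 0.0177). With only the 12 libraries of this comparison Ngfr was called as well as these 4. Leaving out 1 library gave 2 to 4 there, 0 to 1 in VEH-T3 and in Y397F-T10 against VEH-HC, and 0 in the other comparisons. Unadjusted p values gave 3, 4 and 3 members in VEH-T10, VEH-T3 and Y397F-T10 against VEH-HC and 1 in Y397D-T3 against VEH-T3. No member changed direction in a called result. Shares of all rows called under these settings, unadjusted p values included, are not set beside these counts. Whether the counts only follow the whole table was therefore not tested, and neither was the cause of these changes. Replicate numbers belong to different mice, and same-numbered libraries did not deviate together (median r 0.04, range -0.50 to 0.84), so the replicate block, which left 4 called in Y397D-T3 and 0 elsewhere, is no pairing. Unknown depth limits Ngfr and Ntf5 most.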
